A study of Homo sapiens with 11 samples.

Results

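The H3K4me3 intervals of MDA-MB-231 cells without mdig (KO) were compared with those of cells with mdig (WT). MDA-MB-231 is a human triple-negative breast cancer line, and mdig, also named MINA53 or RIOX2, is an oxygenase with a JmjC domain. Members were all intervals listed for the H3K4me3 KO library and the H3K4me3 WT library on chromosomes 1 to 22 and X, 37035 of the 229591 intervals in the 10 ChIP lists. There were 17825 in KO and 19210 in WT. KO and WT cells both came out of CRISPR-Cas9 work per the labels, KO cells made no mdig protein and WT cells made it at the normal level. Both were kept in the same medium with serum and blasticidin. Whether the KO cells are 1 clone is not given in the sources used here. H3K4me3 was precipitated with the same antibody, with 1 library a genotype, so no test was run and every value describes these 2 libraries. The intervals carry no height or score and the read depth is unknown. A library with more reads or better enrichment is called in more and wider intervals, and that cannot be told apart from a difference in the mark. For the antibody against mdig itself, named MINA, the list covered 35.7 Mb in KO and 119.6 Mb in WT, so some MINA intervals remained listed in cells labelled as having no mdig protein.

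H3K4me3 is the trimethyl mark on lysine 4 of histone H3. It is laid down by SET1 and MLL complexes around the start sites of active genes, where it flanks the nucleosome-depleted start on both sides. Narrow peaks are found at most active promoters, and broad domains at genes that define a cell's identity and at clusters of close promoters. H3K36me3 is laid down behind elongating polymerase, so it begins downstream of the promoter, over the transcribed body. No gene annotation of build hg19 was used here, so the intervals could not be set against gene starts, and they are called promoters only by what the mark is known for.

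Wide H3K4me3 intervals were fewer in KO, while the most common class was not. There were 429 intervals of 16 kb or more in KO and 794 in WT, a ratio of 0.540. In the class of 8 to under 16 kb there were 2962 in KO and 3921 in WT, a ratio of 0.755. In the class of 4 to under 8 kb there were 8293 in KO and 7965 in WT, a ratio of 1.04. From 4 kb upwards the shortfall in KO thus grew with width. The class of 1 to under 2 kb had 1828 in KO and 2089 in WT, a ratio of 0.875.

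As shares, intervals of 16 kb or more made up 2.41% of the KO list (95% Wilson interval 2.19% to 2.64%) and 4.13% of the WT list (3.86% to 4.42%). Those of 4 to under 8 kb made up 46.5% of the KO list (45.8% to 47.3%) and 41.5% of the WT list (40.8% to 42.2%). The narrow end differed less: intervals under 1 kb made up 2.10% in KO and 2.05% in WT. By length the widest class covered 9.76 Mb in KO and 18.7 Mb in WT, and the class of 8 to under 16 kb covered 30.2 Mb in KO and 40.6 Mb in WT. The class of 4 to under 8 kb covered 47.6 Mb in KO and 46.5 Mb in WT. The Wilson intervals cover counting error only and leave out differences between libraries of 1 genotype.

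**Figure D1:**
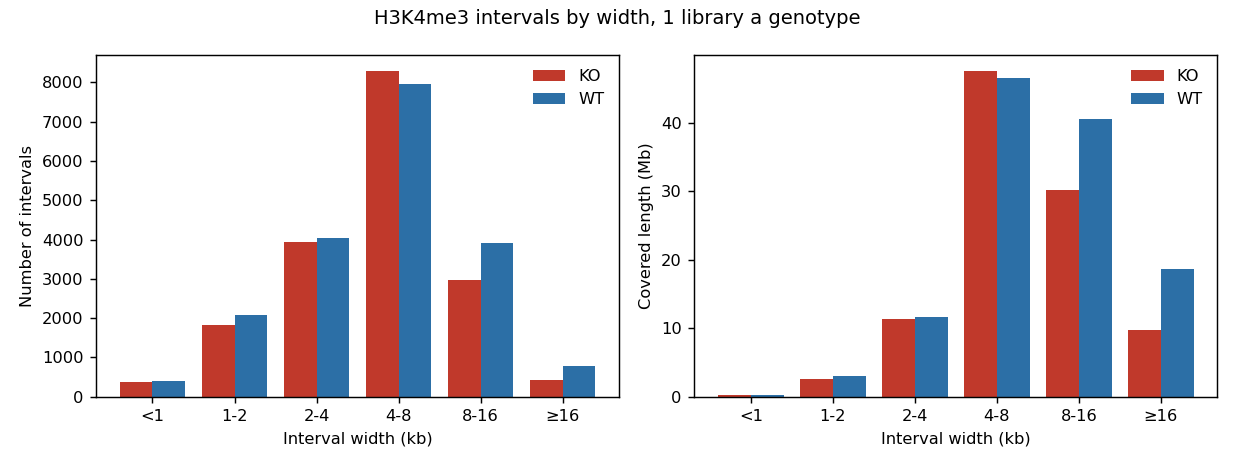
Number of H3K4me3 intervals (left) and their covered length in Mb (right) by interval width in kb, KO in red and WT in blue, 1 library each, with no error bars. KO bars are clearly shorter from 8 kb upwards, with 429 intervals of 16 kb or more in KO and 794 in WT, and closer to level below that.

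Whether an interval was found in the other genotype went with its width. All 429 KO intervals of 16 kb or more overlapped a WT interval, and all 794 WT intervals of that width overlapped a KO interval. In the class of 2 to under 4 kb a partner was listed for 90.7% in KO and 72.4% in WT. Of those of 1 to under 2 kb a partner was listed for 75.4% in KO and 46.8% in WT. An overlap of 1 bp was enough for a partner, so this shows only that some interval was listed at each of the wide domains in both genotypes. Intervals without any partner were all under 16 kb.

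Outer edges held most of the length that was found in 1 list only. Outer edges, meaning the parts of an overlapping interval that reach beyond its partners, held 6.41 Mb of KO-only length and 19.4 Mb of WT-only length. Whole intervals without a partner held 2.18 Mb in KO and 6.98 Mb in WT. The space between pieces of an interval held 0.129 Mb of KO-only and 1.13 Mb of WT-only length. In KO the list was 18.8 Mb shorter in all, and 69.2% of that net difference lay at outer edges, 25.5% in whole intervals and 5.32% between pieces.

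**Figure D2:**
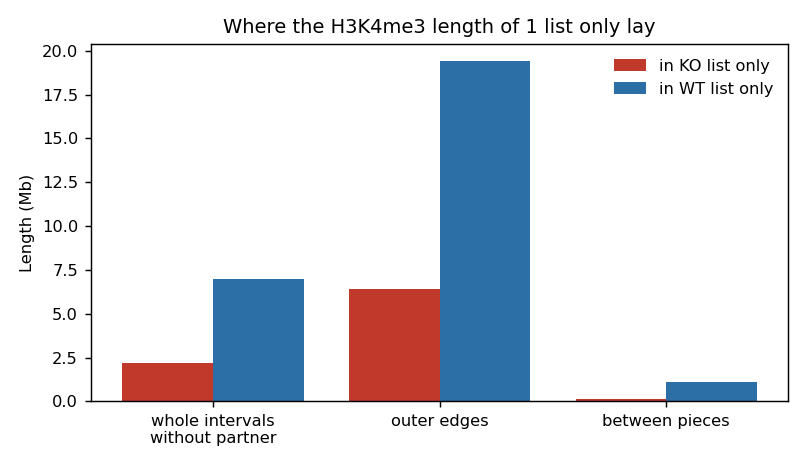
Length in Mb found in the KO list only (red) and in the WT list only (blue), split into whole intervals without a partner, outer edges of overlapping intervals, and the space between pieces, 1 library each. The tallest bars are the outer edges, 6.41 Mb for KO only and 19.4 Mb for WT only.

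The split differed between antibodies. For H3K36me3, whose net length was nearly equal, outer edges held 20.9 Mb of KO-only and 19.9 Mb of WT-only length, so outward and inward edges nearly balanced. For MINA, whole intervals held 77.3% of the net difference and edges 20.7%. These differences between antibodies were not tested, with 1 library for each.

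One-to-one pairs, in which a KO and a WT interval overlap each other by 1 bp or more and overlap no other interval, numbered 15690. That is 95.9% of the WT intervals with any KO overlap, against 57.6% for H3K36me3 and 87.8% for MINA. Among the pairs 10300 were narrower in KO, 4295 were wider and 1095 had equal width. The median width was 5.2 kb in KO and 6.0 kb in WT, and the median change was a loss of 3 windows of the 200-bp grid, -0.6 kb (quartiles -1.6 and 0.2 kb). Widths followed each other closely across pairs, with Pearson's r 0.881 and Spearman's rho 0.876 on the log2 scale, as a description of 15690 sites of the same 2 libraries.

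Large changes of width were few. KO was at least 2-fold narrower in 740 pairs, 4.72% of all, and at least 2-fold wider in 181, 1.15% of all. For H3K36me3 these shares were 5.71% narrower and 4.17% wider, and for MINA 27.2% narrower and 6.46% wider. The heterochromatin marks had 15.5% narrower and 14.4% wider (H3K9me3) or 20.2% narrower and 9.69% wider (H4K20me3). In pairs with a mean width of 4 to under 8 kb 2.81% were at least 2-fold narrower in KO and 0.358% at least 2-fold wider, and in pairs of 1 to under 2 kb 10.6% were narrower and 5.11% wider. Most pairs that were narrower in KO thus differed by less than 2-fold.

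Both ends of the pairs shifted alike over all pairs. The low-coordinate edge lay inward in KO in 57.0% of pairs and outward in 27.4%, and the high-coordinate edge lay inward in 56.9% and outward in 27.7%. Either edge had a median shift of -0.2 kb, where a negative value is inward in KO, with quartiles of -0.8 and 0.2 kb. The means were -0.390 kb at the low edge and -0.386 kb at the high edge. A shift inward by 1 kb or more was seen at 23.4% of the 31380 edges and a shift outward by as much at 7.12%. At 5 kb or more there were 197 edges inward and 31 outward.

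**Figure D3:**
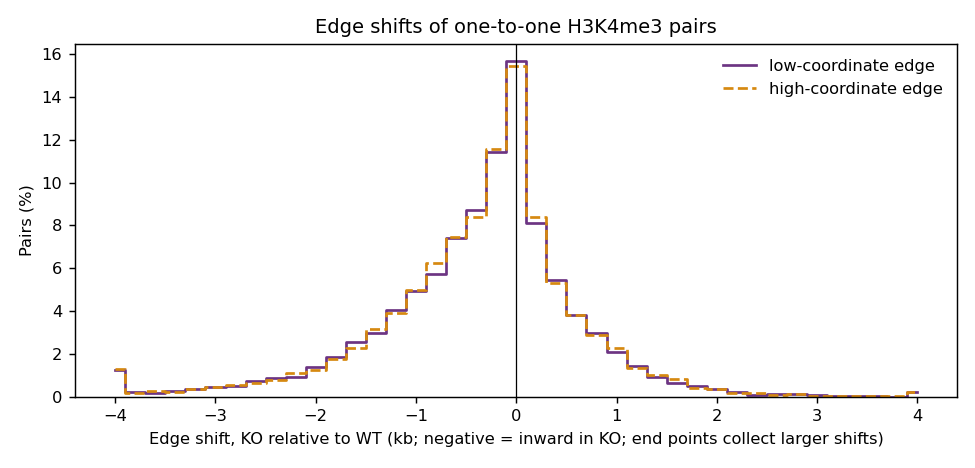
Share of the 15690 one-to-one pairs (%) by the shift of the low-coordinate edge (solid) and of the high-coordinate edge (dashed), in kb, KO relative to WT, with shifts of 4 kb or more collected at the ends. Both curves lie over each other and carry more weight on the negative, inward side, with a median of -0.2 kb.

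Both edges lay inward in KO in 5547 pairs, 35.4% of all (95% Wilson interval 34.6% to 36.1%), with a median change of width of -1.8 kb. Both lay outward in 1503 pairs, 9.58%, with a median of 1.2 kb. In 2548 pairs one edge lay inward and the other stayed, and in 1401 one lay outward and the other stayed. One edge in and one edge out, a sideways slide, was found in 4224 pairs, 26.9%, of which 52.2% were narrower in KO. In those slides the low side lay inward in 49.8%, so they had no common direction along the chromosome. Both edges were the same in 467 pairs. Across pairs the shifts of the 2 edges were only weakly related, with Pearson's r 0.136 and Spearman's rho 0.155.

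The difference in length was larger in wider pairs. By the mean width of KO and WT, the median change was -0.2 kb in pairs of 1 to under 2 kb, -0.4 kb at 2 to under 4 kb, -0.6 kb at 4 to under 8 kb, -1.2 kb at 8 to under 16 kb and -1.6 kb at 16 kb or more. The share narrower in KO was 52.6%, 60.9%, 66.4%, 73.8% and 74.3% in the same order. As a proportion it was more even, and the median KO over WT width ratio lay between 0.875 and 0.927 in these 5 classes.

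The way of classing sets part of this gradient. Classed by the WT width, the median change was -2.8 kb at 16 kb or more and 0.2 kb under 1 kb, and 42.4% of the 483 widest pairs lay in a lower class in KO. Classed by the KO width, every class from 1 kb to under 16 kb had a median of -0.6 kb. A class set from 1 list alone favours a difference back towards the middle, so only the classes by mean width treat KO and WT alike.

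The 3 largest losses of width were taken from the one-to-one pairs, where any change of width lies at the outer edges. Losses of this size also need a wide WT interval. On chromosome 8 (hg19) the KO interval ran from 62621201 to 62628200 and the WT interval from 62603801 to 62629600, 7.0 kb in KO and 25.8 kb in WT, with 17.4 kb of the loss at the low edge. On chromosome 10 the KO interval from 134258801 to 134262000 had 3.2 kb, against 18.0 kb in WT from 134255401 to 134273400, over a place with H3K9me3 in both genotypes and H4K20me3 in KO. On chromosome 12 the KO interval from 48205201 to 48215800 had 10.6 kb, against 24.4 kb in WT from 48201801 to 48226200. A WT MINA interval overlapped each of these 3 regions, as it did 98.9% of all WT intervals of 16 kb or more. H4K20me3 was also listed at the loss on chromosome 8 in KO and at that on chromosome 12 in WT. Of intervals of 16 kb or more, H4K20me3 of the same genotype met 48.5% in KO and 17.3% in WT. H3K9me3 met 9.09% of them in KO and 7.30% in WT.

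The 3 largest gains of width were 13.8, 13.8 and 12.0 kb, against 18.8, 14.8 and 13.8 kb for the losses. The gains on chromosomes 9 and 15 lie in stretches with more listed H3K4me3 length in KO, relative to WT, described below. On chromosome 9 the KO interval from 97765001 to 97788600 had 23.6 kb, against 9.8 kb in WT from 97764001 to 97773800, all of the gain at the high edge. On chromosome 6 the KO interval from 34511201 to 34530600 had 19.4 kb, against 5.6 kb in WT from 34520001 to 34525600, with 8.8 kb added at the low and 5.0 kb at the high edge. On chromosome 15 the KO interval from 75070201 to 75087200 had 17.0 kb, against 5.0 kb in WT from 75073201 to 75078200. That last region carried H3K36me3 and MINA intervals in KO and neither in WT, while the regions on chromosomes 9 and 6 carried WT MINA and no KO MINA. H4K20me3 was listed in KO at the gain on chromosome 9 and in both genotypes at that on chromosome 6, with H3K9me3 in KO. The gain on chromosome 15 had no H4K20me3 or H3K9me3 interval.

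Splitting was more frequent than joining, and both were rare. In KO 494 WT intervals lay over 2 or more KO intervals, 3.02% of the 16356 WT intervals with a KO overlap (95% Wilson interval 2.77% to 3.29%). In the other direction 106 KO intervals lay over 2 or more WT intervals, 0.632% of 16782 (0.523% to 0.763%). For H3K36me3 these shares were 14.8% joining and 15.9% split, so neither direction stood out there.

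Splits were most frequent among the wide domains. Of the WT intervals of 16 kb or more 36.9% were split in KO, against 4.11% of those of 8 to under 16 kb and 0.477% of those of 4 to under 8 kb. Of the KO intervals of 16 kb or more 8.62% joined WT intervals, against 1.25% of those of 8 to under 16 kb and 0.301% of those of 4 to under 8 kb. Splits are classed here by WT width alone and joins by KO width alone. A wide interval has more room for a gap, so a rise with width in either direction is partly set by the classing. A split gave 2 pieces in 456 cases, 3 in 37 and 4 in 1, and the largest piece held a median of 63.6% of the covered part. The gaps opened were short, with a median of 1.4 kb (quartiles 1.0 and 2.8 kb) and 60.8% under 2 kb. The gaps closed by joining were shorter still, with a median of 0.8 kb, the smallest gap the lists hold, and 92.5% under 2 kb.

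Among the widest intervals both kinds of border difference were seen. In KO the widest was 71.4 kb on chromosome 9 from 140071601 to 140143000. It lay inside the widest WT interval, 104.0 kb from 140050601 to 140154600, which KO split into pieces of 14.8, 71.4 and 10.2 kb with 2.0 kb of gaps. The second widest in KO, 63.2 kb on chromosome 11 from 786201 to 849400, matched a WT interval of 62.8 kb with 0.2 kb more at either end. The second widest in WT, 75.8 kb on chromosome 11 from 63986001 to 64061800, was split in KO into 34.4, 15.2 and 12.8 kb with 8.6 kb of gaps. All 3 places carried H3K36me3 and MINA intervals of both genotypes. Such marks were common at this width: of intervals of 16 kb or more H3K36me3 of the same genotype met 95.8% in KO and 87.8% in WT, and MINA met 87.6% in KO and 98.9% in WT.

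The WT interval with the most pieces in KO spanned 48.6 kb on chromosome 3 from 49127401 to 49176000 and lay over 4 KO intervals of 6.0, 9.8, 11.2 and 8.8 kb. The KO interval that joined the most WT intervals spanned 45.2 kb on chromosome 9 from 139217201 to 139262400, over WT intervals of 26.0, 4.8 and 6.2 kb. The next, of 48.6 kb on chromosome 1 from 1237001 to 1285600 and of 44.8 kb on chromosome 17 from 79643601 to 79688400, each joined 2 WT intervals across a gap of 0.8 kb. In both of these a space of 4 windows made the difference between 1 interval and 2.

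Spacing along the chromosomes differed little. The median gap between neighbours was 55.2 kb in KO and 51.6 kb in WT. Gaps of 100 kb or more made up 33.5% in KO (95% Wilson interval 32.8% to 34.2%) and 32.0% in WT (31.3% to 32.6%), a difference of 1.51 percentage points. Gaps under 2 kb made up 2.94% in KO (2.70% to 3.20%) and 3.56% in WT (3.31% to 3.83%). The median distance to the nearest neighbour was 27.6 kb in KO and 25.2 kb in WT. Joining neighbours within 5 kb left 16497 intervals in KO and 17649 in WT.

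Intervals without a partner were mostly small. There were 1043 in KO, 5.85% of the list, and 2854 in WT, 14.9%. Their median width was 1.8 kb in KO and 2.0 kb in WT. The nearest interval of the other genotype lay at a median of 47.4 kb for the KO ones and 38.6 kb for the WT ones, and under 2 kb away for 2.68% of the KO ones and 2.70% of the WT ones. Their spacing was read against intervals with a partner in the same list. The nearest interval with a partner lay within 10 kb for 15.2% of the KO ones without a partner and 24.1% of the KO ones with one. In WT it was 21.0% of those without a partner and 22.9% of those with one, which is nearly the same. Only 7 of the KO ones and 38 of the WT ones reached 8 kb.

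Within the same width class, WT intervals without a partner met H4K20me3 of WT cells more often than WT intervals with one. The shares were 9.90% without and 4.40% with a partner at 1 to under 2 kb, 18.5% without and 6.93% with one at 2 to under 4 kb, and 25.7% without and 9.66% with one at 4 to under 8 kb. Their 95% Wilson intervals, which cover counting error only, did not overlap in any of these 3 classes. The difference was not tested. H3K9me3 of WT cells met 3.87% without and 2.25% with a partner, 7.07% without and 4.74% with one, and 11.9% without and 6.21% with one in the same classes, with overlapping intervals in the first of them. H3K36me3 of WT cells did not go one way over the same classes. At 1 to under 2 kb it met 7.83% without and 5.83% with a partner, with overlapping intervals. At 2 to under 4 kb it met 179 of 1117 without a partner (14.0% to 18.3%) and 11.5% of those with one (10.4% to 12.7%). In that class a higher share was thus not particular to heterochromatin marks. At 4 to under 8 kb it met fewer without a partner, 28.9% (24.5% to 33.7%), than with one, 43.7% (42.6% to 44.8%).

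In KO the classes did not go one way. At 1 to under 2 kb, which held the most KO intervals without a partner, H4K20me3 of KO cells met 8.46% without (6.23% to 11.4%) and 10.7% with a partner (9.14% to 12.4%), and H3K9me3 of KO cells met 3.56% without and 4.13% with one. At 2 to under 4 kb H4K20me3 met 22.8% without (18.8% to 27.4%) and 17.4% with a partner (16.2% to 18.6%), and H3K9me3 met 6.79% without (4.64% to 9.84%) and 5.18% with one (4.50% to 5.96%). At 4 to under 8 kb H4K20me3 met 42.9% without (32.8% to 53.5%) and 27.4% with a partner (26.5% to 28.4%), over 84 KO intervals without one. H3K9me3 in that class met 13.1% without (7.47% to 21.9%) and 5.76% with one (5.28% to 6.29%). H3K36me3 of KO cells met a lower share without a partner in each of these classes. At 1 to under 2 kb it was 4.90% without and 7.61% with one, and at 2 to under 4 kb 13.0% without and 14.5% with one, with overlapping intervals in both. At 4 to under 8 kb it was 35.7% without (26.3% to 46.4%) and 53.7% with one (52.6% to 54.8%).

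MINA met intervals without a partner less often at 4 to under 8 kb, with 16.7% without and 42.4% with a partner in KO and 185 of 370 without and 69.6% with one in WT. At 2 to under 4 kb it was 3.26% without (1.88% to 5.61%) and 10.8% with a partner (9.83% to 11.9%) in KO, and in WT 20.5% without and 23.7% with one, where the Wilson intervals overlap. At 1 to under 2 kb it was 2.00% without and 1.89% with a partner in KO, and 6.66% without and 6.24% with one in WT, so no lower share was seen there.

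The edge next to H3K36me3 lay less far in than the edge away from it. In 5828 pairs H3K36me3 of either genotype touched 1 end of the pair and not the other, and these pairs give each edge a side. The edge away from H3K36me3 had a mean shift of -0.545 kb and a median of -0.4 kb, and the edge next to it a mean of -0.327 kb and a median of -0.2 kb. The away edge lay inward in KO in 63.6% of pairs and the near edge in 53.1%. Within a pair the away edge lay further in for 3145 pairs, 54.0% (95% Wilson interval 52.7% to 55.2%), and the near edge for 2288, 39.3%. H3K36me3 took no part in matching KO and WT intervals, but it chose these 5828 among the one-to-one pairs. Left out were 1770 pairs with it at both ends and 8092 with it at neither. A side was read just outside the outer end of the pair, so it depends on the edges compared.

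The contrast was seen in both orientations. With H3K36me3 at the high-coordinate end (2953 pairs) the mean shifts were -0.530 kb away and -0.313 kb near, and with it at the low end they were -0.562 kb away and -0.342 kb near. In pairs with a mean width of 4 to under 8 kb they were -0.415 kb away and -0.177 kb near, and at 8 to under 16 kb they were -0.817 kb away and -0.607 kb near. It was small in the 319 pairs of 2 to under 4 kb, with -0.230 kb away and -0.164 kb near, where a shift inward by 1 kb or more was seen at 11.3% of away edges and 14.7% of near edges. In the 185 pairs of 16 kb or more the away edge lay further in for 51.4% (44.2% to 58.5%) and the near edge for 44.9%. The away edge lay further in more often on each of the 23 chromosomes, and by the mean on 22 of them, all but chromosome 16. On that chromosome the means were -0.560 kb away and -0.581 kb near, and the shares were nearly even. The away edge lay further in for 46.2% of its 223 pairs and the near edge for 45.7%.

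**Figure D4:**
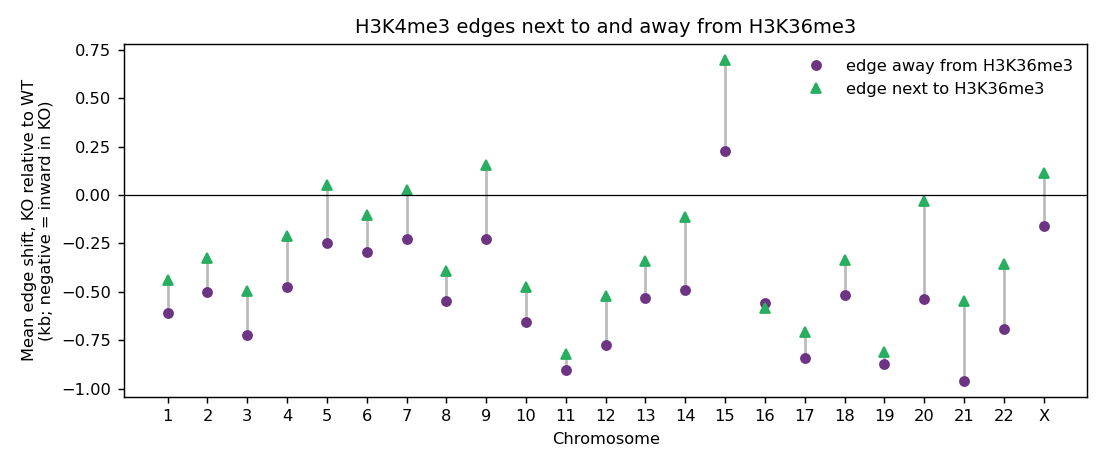
Mean edge shift in kb, KO relative to WT, on each chromosome for pairs with H3K36me3 at 1 end, with circles for the edge away from H3K36me3 and triangles for the edge next to it, 1 library a genotype and no error bars. Circles lie below triangles on 22 of 23 chromosomes, with -0.545 kb away and -0.327 kb near over all pairs.

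WT MINA intervals gave a contrast in the other direction, whose size depended on how a side was read. In 2499 pairs with WT MINA at 1 end, the edge away from it had a mean shift of -0.614 kb and the edge next to it -0.713 kb, with medians of -0.4 kb on both sides. Read at fixed points 10 kb from the centre of the shared part, the near minus away difference was -0.201 kb over 2193 pairs for WT MINA, against -0.0987 kb at the ends of the pair. For H3K36me3 it was 0.187 kb over 5905 pairs at the fixed points, against 0.218 kb at the ends. Within a width class, pairs that met WT MINA anywhere were narrower in KO more often, but a class does not hold width equal. The median WT width at 4 to under 8 kb was 6.4 kb on WT MINA and 5.6 kb off it. At 8 to under 16 kb it was 10.4 kb on it and 9.4 kb off it. At a mean width of 4 to under 8 kb 67.9% of 5694 pairs on WT MINA were narrower in KO, against 62.4% of 2122 pairs off it, with mean changes of -0.760 kb on it and -0.524 kb off it. At 8 to under 16 kb the shares were 74.8% of 2857 pairs on it and 59.3% of 199 off it, with means of -1.50 kb on it and -0.539 kb off it.

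Edges that faced a close neighbour lay further in. Facing a gap of 2 to under 10 kb to the next H3K4me3 region, 62.6% of 3572 edges lay inward in KO, with a mean shift of -0.615 kb. Facing 10 to under 100 kb it was 58.1% of 17243 edges with -0.391 kb, and facing 100 kb or more 52.0% of 9465 edges with -0.237 kb. In pairs of 4 to under 8 kb the order was the same, with 61.9%, 59.0% and 54.0%. Under 2 kb it was 63.3% of 1061 edges, where a shift outward past the gap would have joined the neighbours and ended the pair, so that value is bounded by the matching itself. It also differed by width. Facing under 2 kb, 48.9% of 188 edges lay inward in pairs of 2 to under 4 kb, with a median shift of 0.0 kb. That was the lowest share of any gap class at this width. It was 67.7% in pairs of 4 to under 8 kb and 71.3% at 8 to under 16 kb.

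Chromosomes differed widely. The share of pairs narrower in KO was highest on chromosome 11, with 79.9% of 732 pairs and a median change of -1.2 kb, and on chromosome 19, with 78.8% of 857 pairs and -1.4 kb. It was lowest on chromosome 15, with 33.0% of 518 pairs and a median of 0.4 kb, and on chromosome 7, with 46.2% of 824 pairs and a median of 0.0 kb. On chromosome 15 59.1% were wider in KO. More pairs were narrower than wider on 22 of 23 chromosomes, all but 15, and splits outnumbered joins on 22, all but 20, where 15 KO intervals joined WT intervals and 12 WT intervals were split. WT intervals without a partner outnumbered KO ones on 21, all but 9 and 15.

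**Figure D5:**
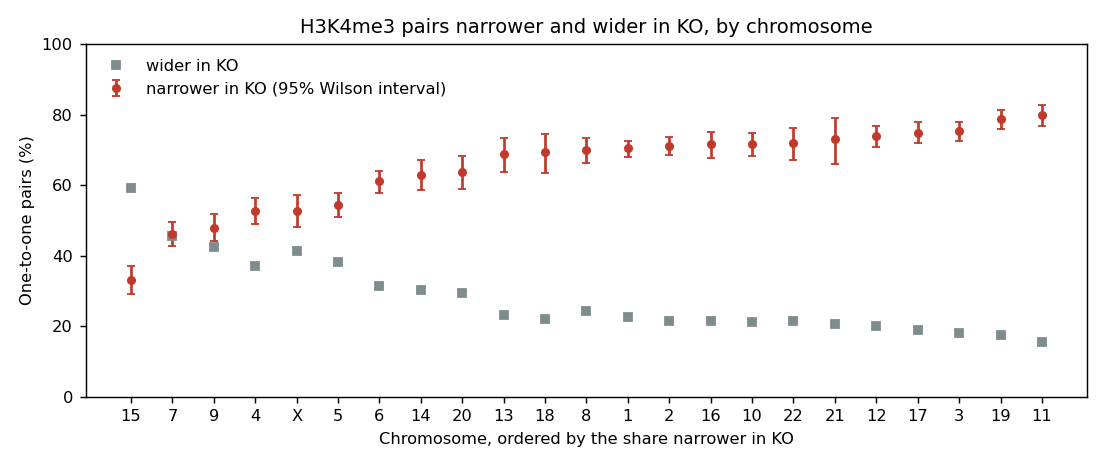
Share of one-to-one H3K4me3 pairs (%) that were narrower in KO (circles, bars are 95% Wilson intervals for counting error) and wider in KO (squares) on each chromosome, ordered by the share narrower. Chromosome 15 at 33.0% narrower lies below its share wider of 59.1%, chromosomes 7 and 9 are nearly even, and chromosome 11 reaches 79.9%.

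Chromosomes 4, 5, 7, 9, 15 and X, those with the lowest shares narrower, carry long stretches with more listed length in KO, relative to WT, than elsewhere. This was seen for H3K4me3 and for H3K36me3. Cut from the H3K4me3 covered length in 2-Mb bins, these stretches took in 345 of 1529 bins on chromosomes 4, 5, 7, 9, 14, 15 and X. Inside them 42.4% of 3221 pairs were narrower in KO, and 71.7% of 12469 outside, but there the cut itself was made on H3K4me3 length. Cut instead from H3K36me3, which holds no H3K4me3 value, the stretches took in 311 of 1527 bins on chromosomes 4, 5, 7, 9, 15, 20 and X. They gave 41.5% of 2751 pairs narrower inside and 70.8% of 12939 outside, with median changes of 0.0 kb inside and -0.8 kb outside. Chromosome 14 was taken in whole by the H3K4me3 cut only. On it 62.9% of pairs were narrower in KO, and 3.36 Mb was listed in KO against 3.84 Mb in WT. Chromosome 6, with 61.1% narrower, was in neither cut. Outside the stretches most pairs were narrower in KO, and inside them more pairs were wider than narrower, 49.8% and 41.5% by the H3K36me3 cut. A different copy number of a stretch and a different level of the mark on each copy cannot be told apart in these lists.

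The contrast between the 2 ends of a pair was seen on both sides of that cut. Inside the H3K4me3 stretches the away edge had a mean shift of -0.0912 kb and the near edge 0.259 kb over 1187 pairs, and outside the away edge had -0.662 kb and the near edge -0.477 kb over 4641 pairs. Both edges lay further out inside the stretches, which a cut made on H3K4me3 length itself favours. The difference between the 2 edges was 0.350 kb inside and 0.184 kb outside. With the stretches cut from H3K36me3 instead, the away edge lay further in for 56.9% of pairs inside and 53.3% outside.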

How the data were processed

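ChIP-seq interval lists of 5 antibodies in KO and WT cells were used, with 1 library per antibody and genotype. Input DNA was left out. Alignment with BWA to hg19 and calling with SICER 1.1 are credited to the submitters' processing notes. No source at hand states the caller's window, gap or threshold. The authors deposited interval positions with no other value, so start and end are coordinates, no counts, signal or score were at hand, and depth is unknown. All starts and ends lie on a 200-bp grid. Members and lists were chosen with earlier results of these data known.

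Intervals on chromosomes 1 to 22 and X were matched by overlaps of 1 bp or more with Python 3.11.15, numpy 2.4.6, pandas 2.3.3 and scipy 1.17.1, after the matching had been tested on simulated data. An edge shift is positive when it lies outward in KO. A pair has H3K36me3 on 1 side when that mark of either genotype covers the base just outside 1 outer end of the pair and not the other. Raised stretches came from a 2-state hidden Markov model on the log2 ratio of KO over WT length (1 kb added) in 2-Mb bins, a switching probability of 0.001, and bins under 20 kb uninformative. Regions were named by rule: the 2 widest intervals of each list, the 3 largest losses and gains of width, and the 3 intervals with the most pieces in each direction. Shares have 95% Wilson intervals, which cover counting error only. With no replicates there were no tests. Coordinates are 1-based on hg19. With no hg19 annotation at hand, no gene was assigned.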

Additional observations from a re-analysis of the deposited data

How the results depend on the processing

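Of 80 recomputed values 45 moved by less than their counting error, 25 moved by more and 10 lay on the other side of no difference. The cause was not tested. Counting error took 200-bp windows (for covered length) and the 2 edges of a pair as independent, which they are not. The division into 45 and 25 depends on that. All 10 came from looking only inside the raised stretches, cut from H3K4me3 or from H3K36me3: covered length KO over WT was 1.02 or 1.03 (0.844 over all), the ratio of numbers at 8 kb or more 1.02 or 1.06 (0.719), edges inward in KO 39.3% or 38.0% (56.9%), pairs narrower in KO 42.4% or 41.5% (65.6%), and the share of gaps of 100 kb or more, KO minus WT, -0.568 or -0.779 percentage points (1.51). For 4 of the 10 the 95% interval includes no difference: 0.917 to 1.14 and 0.942 to 1.20 for the ratio at 8 kb or more, and -2.75 to 1.61 and -3.14 to 1.59 percentage points for the gap share. There too WT splits were 1.86% or 1.89% (3.02%), KO joins 0.949% or 1.14% (0.632%), and the edge away from H3K36me3 lay further in for 58.2% or 56.9% (54.0%). Outside the stretches the values were 0.809 or 0.814 for covered length, 0.671 or 0.678 for numbers at 8 kb or more, 61.5% or 61.0% for edges inward, 71.7% or 70.8% for pairs narrower, and 3.32% for splits with the H3K4me3 cut. Without chromosome 15 they were 0.837 for covered length, 57.9% for edges inward and 66.8% for pairs narrower, and with intervals of at least 2 kb 58.0% for edges and 66.6% for pairs. Dropping intervals under 2 kb cannot change the numbers at 8 kb or more, so that ratio is among the 45 by construction. Joining neighbours within 2 kb gave 0.258% joins, and within 5 kb 0.360% joins, 2.48% splits and a ratio of 0.763 at 8 kb or more. Asking for a longer overlap, at least 50% of the shorter interval, gave 0.376% joins; matching plays no part in covered length, width classes and spacing, so that alternative gives no value there. The cuts inside the stretches and from H3K36me3, and the other ways of reading the H3K36me3 side, were chosen after seeing the data. No paired analysis was possible because each antibody has 1 library per genotype. Unknown depth and a single library a side limit every value.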
